A study of Mus musculus with 4 samples.

Results

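The 10 mouse genes described here are Ifitm1, Ifitm2, Ifitm3, Bst2, Rsad2, Mx1, Mx2, Lgals3bp, Rnf213 and Samhd1. They encode restriction factors and related antiviral proteins that act on viral entry, budding or replication. They were chosen by name from the 48897 genes of the deposited count table, with the difference between left and right eyes in these libraries already known, so their differences between the groups are given as a description and not as a test. The RNA came from retinas of C57BL/6 mice (C57BL/6J in the study's methods) with the genotype label “wide type”, taken on postnatal day 9. On postnatal day 3, each left eye had been injected intravitreally with 0.6 nmol of miR-124-3p antagomir in 1 μl (anti-miR-124 group) and each right eye with the same amount of a scrambled sequence (NC group). An antagomir is a chemically modified antisense oligonucleotide that binds a mature microRNA. Both groups therefore share the injection itself, and neither holds an uninjected eye. Retinas of several mice were mixed, with litters differing within a group, and the methods give the number of mixed retinas by group but not by library. Each group has 2 libraries, and a left-eye and a right-eye library that carry the same number in the table form a pair, A or B, and the libraries are named NC-A, anti-A, NC-B and anti-B here.

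Restriction factors are host proteins that block a step of the viral life cycle. Most of them are encoded by interferon-stimulated genes: type I interferon binds its receptor, kinases bound to the receptor activate transcription factors, and these bind a short promoter element, the interferon-stimulated response element. In the nervous system, neurons, glia and microglia can all carry such transcripts, so the RNA of a whole retina does not tell which cell type they came from. In bulk samples, fewer cells of a type and less RNA per cell cannot be told apart.

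The response element is the sequence feature that bears on the members as a set, and it was searched in the RefSeq promoters of the GRCm38.p6 build, which run from 250 bases before to 50 bases after each gene start. The motif searched was GAAA, any 2 bases and GAAA, on both strands, where the other strand reads as TTTC, any 2 bases and TTTC. Of the 10 genes, 8 had a promoter entry, and 4 of these held the motif. It was present in 3.44% of all 32851 promoters and in 3.52% of the 11957 genes that had both a promoter entry and enough reads to be tested. The windows that hold it are given below from 5′ to 3′ on the strand of the gene, with the matches in capitals, because they show that the copies differ in number and place. The windows are chr8:71537557-71537632 for Bst2, chr12:26456533-26456602 for Rsad2, chr7:140955968-140956037 for Ifitm2 and chr7:141010695-141010772 for Ifitm3, all on the minus strand of the chromosome.
Bst2: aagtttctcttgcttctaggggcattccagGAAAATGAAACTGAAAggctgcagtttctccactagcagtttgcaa
Rsad2: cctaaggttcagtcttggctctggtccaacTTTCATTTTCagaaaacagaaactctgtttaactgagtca
Ifitm2: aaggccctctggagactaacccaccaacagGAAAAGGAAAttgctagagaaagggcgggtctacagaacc
Ifitm3: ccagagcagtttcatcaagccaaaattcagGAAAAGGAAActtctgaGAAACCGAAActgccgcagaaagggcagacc

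Bst2 held 2 overlapping matches, of which the first begins at base -130 from its start. Rsad2 held 1 match on the other strand, at base -120, and Ifitm2 held 1 match at base -46. Both matches of Ifitm3 lay after its start, beginning at bases 3 and 20. Its first match had the same 10 letters as that of Ifitm2. No match was found in the windows of Ifitm1, Lgals3bp, Rnf213 and Samhd1. For Ifitm1, Rnf213 and Samhd1 the RefSeq start lies inside the interval that the deposited table gives for the gene. Mx1 and Mx2 had no promoter entry. A match describes these letters only, and a window without one says nothing about binding elsewhere in the gene.

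**Figure D1:**
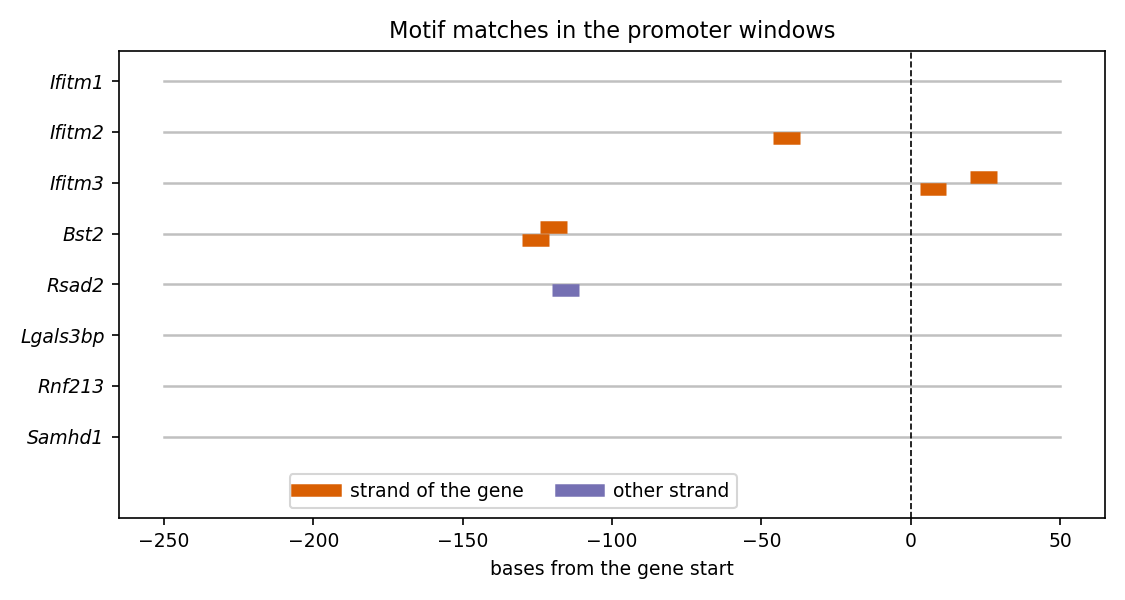
Matches of the response element motif along the promoter windows of the 8 genes with an entry, as distance in bases from the gene start (dashed line). Orange marks the strand of the gene and purple the other strand. The matches of Bst2, Rsad2 and Ifitm2 lie before the start, those of Ifitm3 after it, and 4 genes have none.

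Each library held between 16317239 and 18726963 reads counted on genes. CPM (counts per 1000000 reads) is the read count over the library size after TMM scaling, and TPM also divides by gene length, so only TPM compares levels between genes. A count of 3 reads corresponded to 0.159 to 0.186 CPM. One library stood apart: lens genes took 1.98% of the counts and 6.50% of the TPM sum in NC-A, and at most 0.00593% of the counts in the others. TPM ratios within pair A are therefore slightly above CPM ratios, and for Ifitm2 the log2 ratio was -0.32 in TPM and -0.43 in CPM. The library anti-B also stood apart in the markers of microglia and gliosis, which are given with the results they move with. The library anti-A had the highest sums of red cell and pigment epithelium markers, also given there.

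Over the 17766 genes that passed edgeR's filter on low counts, no gene had an adjusted p-value under 0.05 (edgeR's quasi-likelihood test, Benjamini-Hochberg adjustment), which is 0% of genes tested and 0 of the 8 members that could be tested. At an unadjusted p-value under 0.05, 2.23% of all genes tested lay higher in the anti-miR-124 group, and so did 6 of the 8 members. DESeq2 called 0.129% of genes higher at an adjusted p-value under 0.05, and among them 5 of the 10 members, namely Bst2, Rsad2, Ifitm3, Lgals3bp and Rnf213. The members were chosen on this same contrast, so these counts only say where the chosen genes lie. Among the 8 tested, Mx2 passed the filter in the anti-miR-124 group alone, and Bst2 in that group and only 1 NC library. Both are thus in the counts of this paragraph wholly or partly because that group was high. In both pairs, 22.8% of all genes tested had a higher CPM in the left eye. Of the 8 members tested this held for 7, and of all 10 members for 9, Ifitm2 being the exception. For 16.5% of all genes tested, both anti-miR-124 libraries lay above both NC libraries, and this held for 7 of the 8 members tested and for 8 of all 10.

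The Ifitm genes encode small interferon-induced transmembrane proteins that hinder the fusion of viral and cellular membranes. They lie together on chromosome 7, Ifitm2 at chr7:140954839-140955961 and Ifitm3 at chr7:141009590-141010744 on the minus strand, and Ifitm1 at chr7:140967429-140969828 on the plus strand. Ifitm3, which blocks entry from endosomes, had 36 reads in NC-A and 83 in anti-A, and 23 in NC-B and 153 in anti-B. Both anti-miR-124 libraries were above both NC libraries. Its level was 1.75 ± 0.68 CPM in the NC group and 6.49 ± 2.30 CPM in the anti-miR-124 group (SD, n = 2), a log2 fold change of 1.89 with a standard error of 0.38.

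Ifitm2, its neighbour, had 47 reads in each NC library, and 37 and 111 reads in anti-A and anti-B. The libraries of the anti-miR-124 group lay on either side of the NC libraries, so the groups overlapped. Within pairs, the CPM ratio was 0.743 in pair A (95% exact interval 0.469 to 1.17, covering counting error only) and 2.26 in pair B (1.59 to 3.25). The log2 fold change over both pairs was 0.55 with a standard error of 0.47, and without anti-B it was -0.34. Ifitm1 had 0 and 2 reads in pair A and 3 and 6 in pair B, too few to be tested. Its TPM was at most 1.23, so no difference was detectable at this depth.

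Ifitm2 and Ifitm3 are close copies, which matters for how reads are divided between them. Their longest GENCODE transcripts matched at 84.9% of 358 aligned bases, with an unbroken shared run of 69 bases. Ifitm1 shared a run of 64 bases with Ifitm3 and of 40 bases with Ifitm2. How reads that match several genes were counted is not given in the sources used here, so the split between these genes is uncertain. The values within pair A nevertheless moved apart, with Ifitm3 at a CPM ratio of 2.18 (1.45 to 3.31) and Ifitm2 at 0.743.

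Bst2 encodes tetherin, a membrane protein that holds budding virus particles at the cell surface. It lies at chr8:71534259-71537437 on the minus strand. Its reads were 14 in NC-A and 75 in anti-A, and 10 in NC-B and 154 in anti-B. The groups did not overlap, and the lower anti-miR-124 library held more than the NC libraries together. The level was 0.712 ± 0.223 CPM in the NC group and 6.28 ± 2.67 CPM in the anti-miR-124 group (SD, n = 2), a log2 fold change of 3.14 with a standard error of 0.43. Only 1 of its NC libraries reached the filter's level of 0.569 CPM, so Bst2 was tested partly because the anti-miR-124 group was high.

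Rsad2 encodes viperin, a radical SAM enzyme at the endoplasmic reticulum and lipid droplets that makes a chain-terminating nucleotide and affects the budding of some viruses. It lies at chr12:26442743-26456452 on the minus strand. It had 26 and 127 reads in NC-A and anti-A, and 22 and 191 in NC-B and anti-B. All 4 values were ordered by group, and the relative spread within the anti-miR-124 group was smaller than for Bst2. The means were 1.42 ± 0.28 and 8.79 ± 1.90 CPM (SD, n = 2), a log2 fold change of 2.63 with a standard error of 0.29.

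**Figure D2:**
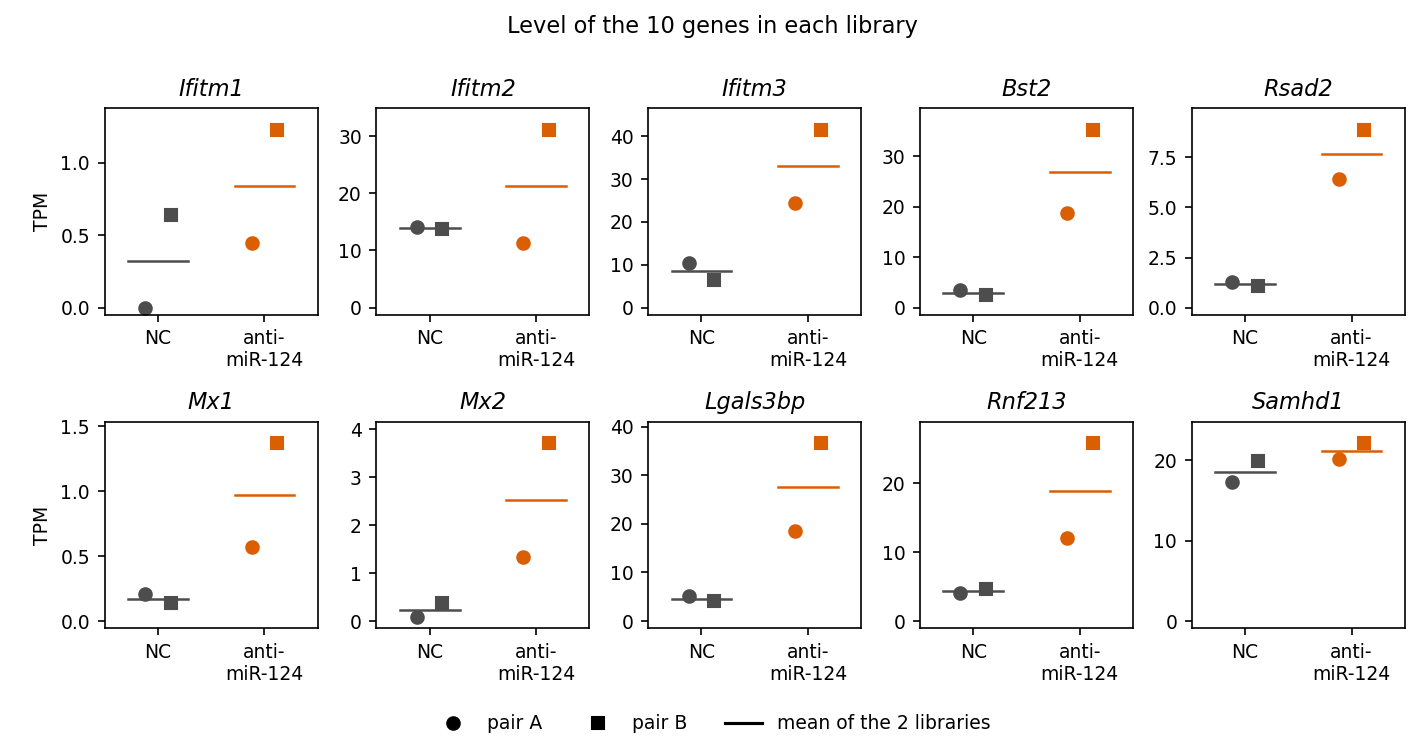
TPM of each of the 10 genes in the 4 libraries, with the NC group in grey and the anti-miR-124 group in orange, circles for pair A, squares for pair B and a line at the mean of the 2 libraries. Each panel has its own scale from 0. The library anti-B is the highest in every panel, reaching 41.5 TPM for Ifitm3.

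Mx1 and Mx2 belong to a family of dynamin-like GTPases that trap viral ribonucleoproteins. The deposited table types both as transcribed pseudogenes, and both genes are known to carry defects in common laboratory strains. They lie side by side on chromosome 16, Mx1 at chr16:97447035-97462906 on the minus strand and Mx2 at chr16:97536081-97560901 on the plus strand. Mx2 had 1 and 17 reads in NC-A and anti-A, and 5 and 51 in NC-B and anti-B. Its log2 fold change was 3.36, with the largest standard error among the members tested, 0.77, and no NC library reached the filter's level. The ratio was 16.04 in pair A (2.51 to 670) and 9.77 in pair B (3.92 to 31.4), so counting error alone leaves the size in pair A poorly set.

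Leaving out single libraries moved Mx2 by more than 1.5-fold, to a log2 fold change of 2.72 without NC-A, 4.75 without NC-B and 2.47 without anti-B. Mx1 had 3 and 8 reads in pair A and 2 and 21 in pair B, and was not tested. Its ratio was 2.52 in pair A, with an interval of 0.604 to 14.7 that includes 1, and 10.1 in pair B (2.46 to 88.5). The groups did not overlap for either gene. Mx1 and Mx2 transcripts matched at 94.1% of 996 aligned bases, with a shared run of 140 bases, so their reads may also have been split between them.

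Lgals3bp encodes a secreted glycoprotein that binds galectins, is induced by viral infection and can be carried by virus particles. It lies at chr11:118392752-118401931 on the minus strand. It had 59 and 211 reads in NC-A and anti-A, and 49 and 451 in NC-B and anti-B. The NC libraries were close to each other, and both anti-miR-124 libraries were far above them. The level was 3.19 ± 0.67 CPM in the NC group and 18.1 ± 8.2 CPM in the anti-miR-124 group (SD, n = 2), a log2 fold change of 2.51 with a standard error of 0.35.

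Rnf213 encodes a very large ubiquitin ligase with an ATPase module that coats lipid droplets and intracellular microbes. It lies further along chromosome 11, at chr11:119390035-119487418 on the plus strand. It had the most reads of all members, with 372 and 1066 in pair A and 423 and 2487 in pair B. The NC libraries agreed closely at 23.3 ± 0.2 CPM, and the anti-miR-124 libraries spread widely at 97.2 ± 49.1 CPM (SD, n = 2). The log2 fold change was 2.06 with a standard error of 0.32, and 1.43 without anti-B. Other genes overlap it, of which LOC102639982, a long non-coding RNA on the other strand, had the most reads, with 98 and 151 in pair A and 123 and 176 in pair B. The library kit keeps the strand, but whether the counting used it is not given in the sources used here.

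Samhd1 encodes a phosphohydrolase that lowers the pool of deoxynucleotides needed for reverse transcription. It lies at chr2:157097529-157135277 on the minus strand. It had 449 and 517 reads in pair A and 531 and 616 in pair B, and unlike most other members it was well expressed in the NC retinas. Its means were 28.6 ± 1.1 and 31.5 ± 1.7 CPM (SD, n = 2), a log2 fold change of 0.14 with a standard error of 0.09. The ratio was 1.09 in pair A (0.955 to 1.24) and 1.11 in pair B (0.988 to 1.25), so both counting intervals include 1.

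The 10 genes thus differed among themselves in both level and difference. Over the 8 members tested, the median log2 fold change was 2.29, beside 0.0007 over all genes tested. A log2 fold change above 2 was found for 59 of all genes tested (0.332%), and for 5 of the 8 members. Mx2, among these 5, reached the filter's level in the anti-miR-124 group alone. Mx2 entered this count and the median because that group was high. Bst2, also among these 5, reached that level in only 1 NC library, so it entered them partly for the same reason.

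**Figure D3:**
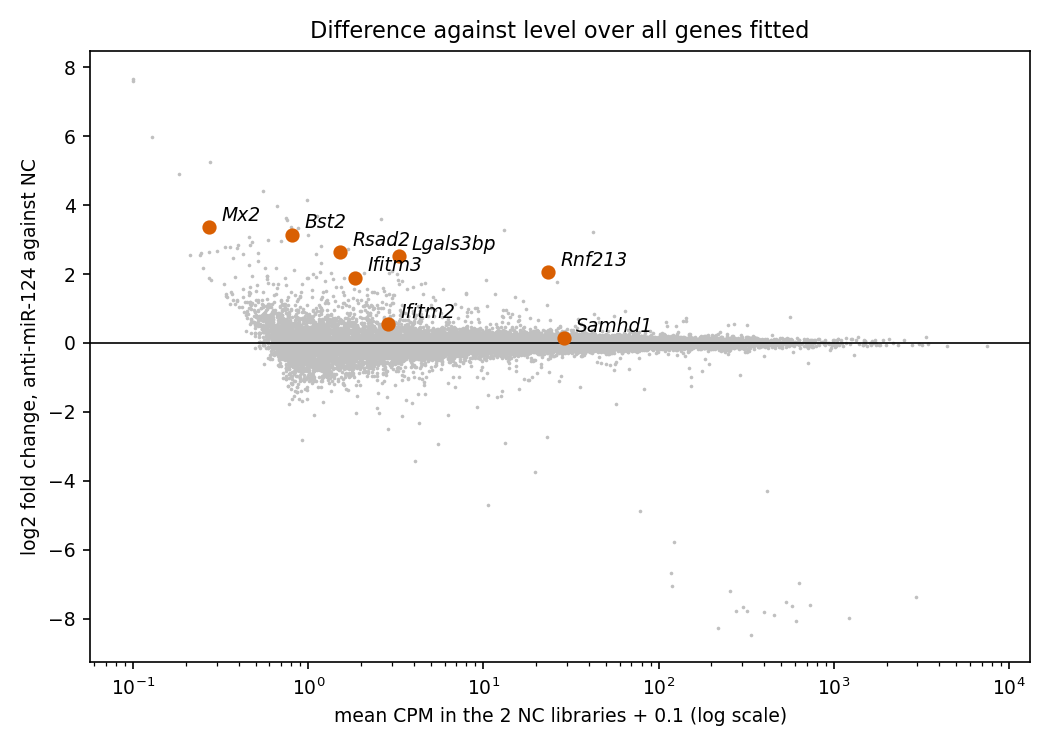
Log2 fold change of every gene tested against its mean CPM in the NC libraries on a log axis, with 0.1 added so that genes at 0 can be drawn. The 8 members tested are in orange and all other genes in grey. Samhd1 (0.14) and Ifitm2 (0.55) lie near the mass of genes, and Rnf213 (2.06) stands out at a level of 23.3 CPM. The grey points below -4 are mostly lens genes that were high in NC-A.

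Levels between the genes were compared per length, in TPM. In the NC retinas the order was Samhd1 (mean 18.6 TPM), Ifitm2 (14.0), Ifitm3 (8.50), Lgals3bp (4.64), Rnf213 (4.37), Bst2 (2.91), Rsad2 (1.18), Ifitm1 (0.321), Mx2 (0.229) and Mx1 (0.173). The ranges of neighbouring genes over the 2 NC libraries overlapped for Lgals3bp and Rnf213, for Ifitm1 and Mx2, and for Mx2 and Mx1, and were separate for the other neighbours. In the anti-miR-124 retinas the order was Ifitm3 (33.0 TPM), Lgals3bp (27.6), Bst2 (27.0), Ifitm2 and Samhd1 (both 21.2), Rnf213 (18.9), Rsad2 (7.65), Mx2 (2.52), Mx1 (0.969) and Ifitm1 (0.836). Among the 6 highest genes there, the ranges of neighbours in the order overlapped.

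Placed among all genes with at least 1 read in the same library, Bst2 lay at percentile 48.8 and 44.5 in NC-A and NC-B, and at 67.2 and 77.0 in the anti-miR-124 libraries. Ifitm3 moved from percentile 60.9 and 55.2 to 71.3 and 79.7. Samhd1 stayed between 67.5 and 69.6 in all 4 libraries. Even in the anti-miR-124 libraries, no member was above percentile 79.7.

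The size of the difference depended on the pair. The median log2 CPM ratio of the 8 members tested was 1.59 in pair A and 2.84 in pair B, beside -0.0094 and 0.0031 over all genes tested. Of the 9 members with reads in every library, 8 had a larger ratio in pair B, and Mx2 had the larger ratio in pair A. The counting interval lay wholly above 1 for 6 members in pair A and 8 in pair B. For Ifitm2, Ifitm3, Lgals3bp and Rnf213, the interval in pair B lay wholly above that in pair A. Rnf213, with the narrowest intervals of these 4 genes, had a ratio of 2.70 in pair A (2.40 to 3.05) and 5.63 in pair B (5.08 to 6.26). For the counts of members by ratio and by interval, the shares over all genes tested were not computed. Those counts therefore do not set the members apart from other genes.

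The libraries of each group were also compared with each other. All 10 members had a higher CPM in anti-B than in anti-A, and for 8 of them the counting interval of that ratio lay above 1. Between the NC libraries, 4 of the 10 members were higher in pair B, and the interval included 1 for 9 of the 10, Ifitm3 being the exception at a ratio of 0.570 (0.322 to 0.988). The same shares over all genes tested were not computed, so these counts do not set the members apart from other genes. Without anti-B, the median log2 fold change of the members tested was 1.72. Without NC-A, which held the lens transcripts, it was 2.53.

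**Figure D4:**
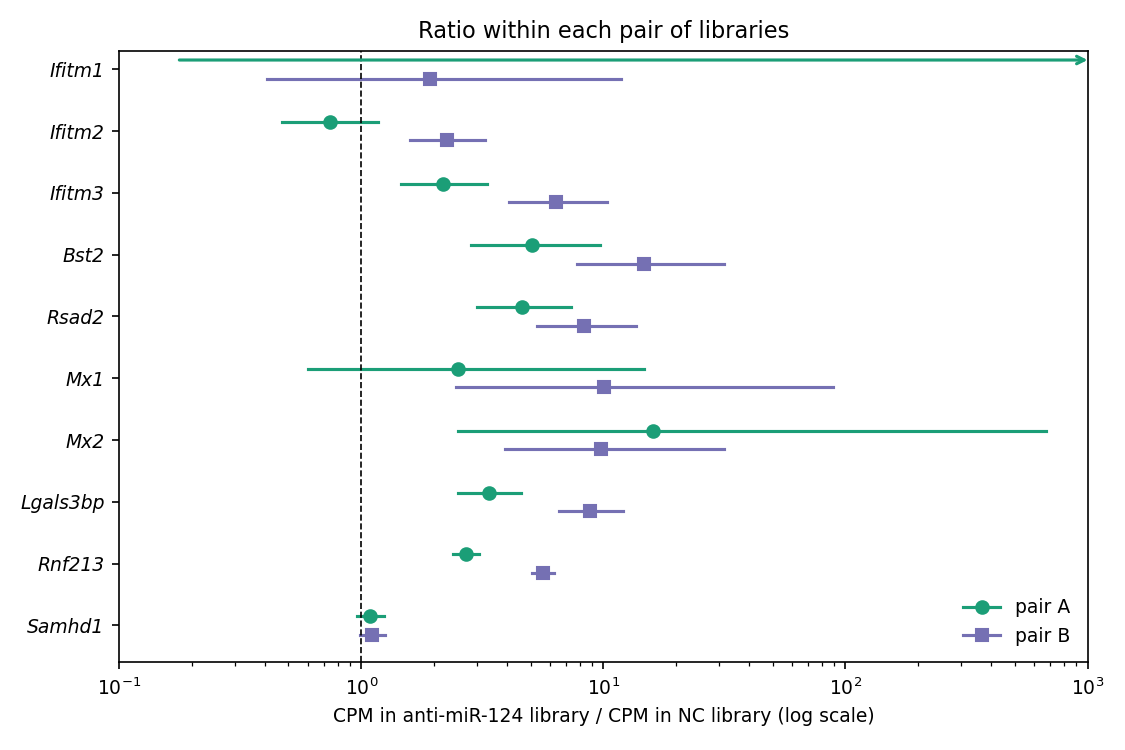
Ratio of CPM in the anti-miR-124 library to CPM in the NC library within pair A (green circles) and pair B (purple squares), on a log axis, with 95% exact counting intervals as bars. The dashed line is a ratio of 1. The arrow for Ifitm1 in pair A has no upper end because its NC library had 0 reads. Samhd1 lies near 1 in both pairs, and Rnf213 is at 2.70 and 5.63.

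Genes of the interferon pathway around the members were described from lists that were also drawn up with earlier results known. Over all 17766 genes tested, 4044 were higher and 4258 lower in both pairs, to be set beside the counts of each list below. The ligands had few reads. Of 20 interferon genes, 16 had no read in any library, and the others, Ifnab, Ifnk, Ifnz and Ifng, had 6 reads together, all in NC libraries. Of 16 tested genes for receptors, kinases and factors, 11 were higher and 0 lower in both pairs, none passed an adjusted p-value of 0.05 with edgeR and 3 of the 17 listed did with DESeq2. Their median log2 fold change was 0.23. The largest were those of Usp18, which removes ISG15 and dampens receptor signalling (4.40, standard error 0.59), Irf7, a transcription factor of the interferon response (3.34, 0.56), and Irf9, the DNA-binding partner in the complex that reads the response element (1.46, 0.23).

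Among antiviral effectors that act inside the cell, such as the Ifit and Oas genes, 29 of the 34 tested had higher values in both pairs and 1 had lower values, none by edgeR's adjusted p-value and 15 of 38 listed by DESeq2's. Their median log2 fold change was 2.05. Oas1a had no read in the NC libraries, and its lower bound also lies above this median, so the bound could not move it. Oas1a and some other effectors reached the filter's level in the anti-miR-124 group alone. Such genes were tested because that group was high, and they lie above the median and raise it. Without anti-B the median was 1.33. The median log2 ratio was 1.36 in pair A and 2.29 in pair B, so the order of the pairs was that of the members. The effector with the highest NC level, Adar, an RNA editing enzyme, was at a log2 fold change of 0.16 with a standard error of 0.09. The response element motif was present in 15 of the 30 effectors with a promoter entry.

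Of 8 tested genes for other factors of viral entry and release, 3 were higher in both pairs and 0 lower. Their median log2 fold change was 0.05, and none passed with edgeR or DESeq2. The largest values were those of Lgals9, a galectin (1.40, standard error 0.34), Ly6e, a membrane-anchored inhibitor of coronavirus entry (0.34, 0.12), and March8, a ubiquitin ligase that removes viral envelope proteins (0.08, 0.10). Paralogs and partners of the members, including the dynamins and galectins, had a median of -0.03, with 1 of 10 tested genes higher and 2 lower in both pairs. In this list Lgals3, a galectin of phagocytes, had 15 and 12 reads in pair A and 20 and 485 in pair B, so its log2 fold change of 3.69 (standard error 1.38) came from 1 library. The next were Lgals1 (0.39, 0.27) and Ifitm7 (-0.18, 0.24).

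The enzymes that supply the deoxynucleotides that Samhd1 degrades had a median log2 fold change of -0.06, as 2 of 11 were higher and 4 lower in both pairs, none passing with edgeR or DESeq2. The largest differences in this list were those of the nucleoside kinases Dguok (-0.19, standard error 0.14) and Tk1 (-0.19, 0.38) and of the deaminase Dctd (-0.13, 0.26). All 3 were smaller than 2 standard errors.

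**Figure D5:**
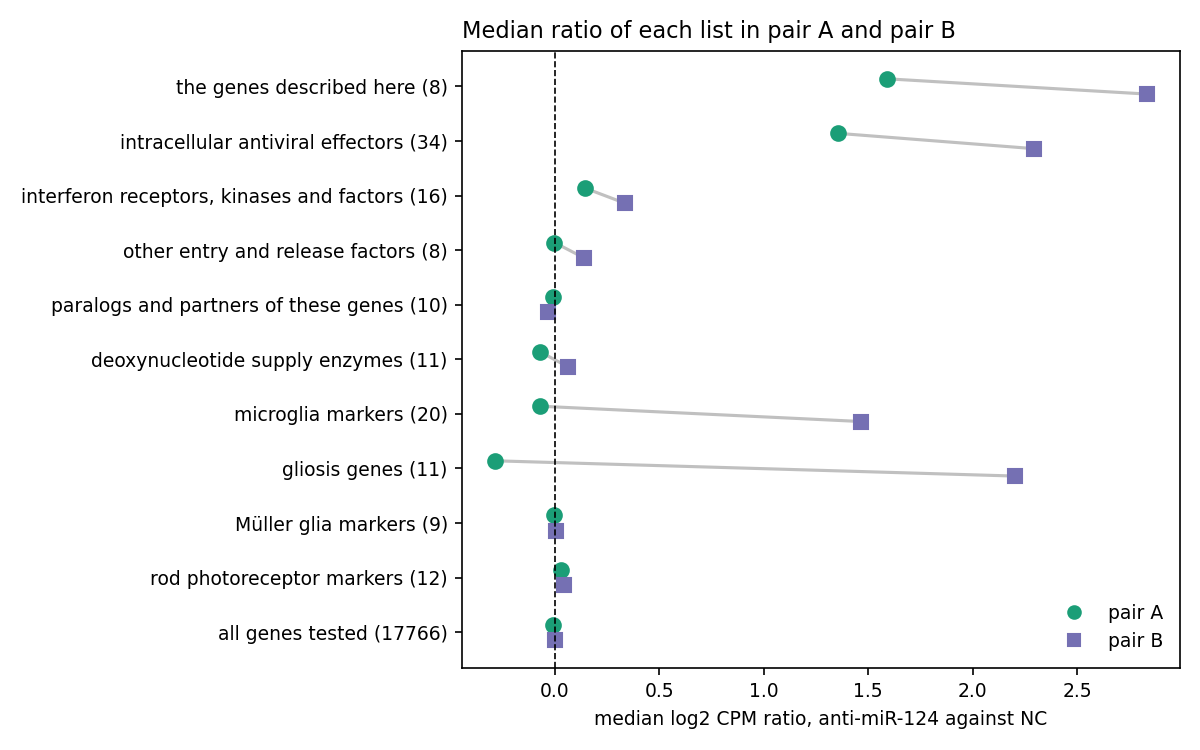
Median log2 CPM ratio of each gene list in pair A (green circles) and pair B (purple squares), with the number of genes tested in brackets. The genes described here (1.59 and 2.84) and the intracellular effectors (1.36 and 2.29) lie to the right in both pairs, while the microglia markers (-0.07 and 1.47) and gliosis genes (-0.29 and 2.21) do so in pair B alone.

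Markers of other cell types were summed beside these values. The 20 microglia markers summed to 313 and 309 TPM in NC-A and anti-A, and to 256 and 781 TPM in NC-B and anti-B, with 8 of 20 higher and 0 lower in both pairs. The members summed to 56.2 and 114 TPM in pair A and to 53.7 and 208 TPM in pair B. In pair A the sum of the members was higher in the anti-miR-124 library while the microglia sum was not, and in pair B both were higher. All 20 had reads in every library, and Ctss, a lysosomal protease of microglia, was at 34.0, 39.0, 32.2 and 136 TPM in the order NC-A, anti-A, NC-B, anti-B. Each of the 20 was higher in anti-B than in NC-B, while in pair A some were higher and others lower. P2ry12 rose least of the 20 in pair B, with a log2 CPM ratio of 0.16 there. It was at 5.61, 6.59, 5.13 and 5.71 TPM in the same order, so the markers shared the direction in pair B but not the size. The part of microglia in the values of either pair was not tested.

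Gliosis genes, which mark stressed Müller glia and astrocytes, summed to 186 and 130 TPM in pair A and to 131 and 398 TPM in pair B, with 1 of 11 higher and 0 lower in both pairs. Gfap, the intermediate filament of reactive glia, was at 69.1 and 33.8 TPM in pair A and at 28.5 and 162 TPM in pair B. Their part in the values of pair B was not tested. Of 15 blood leukocyte markers, 5 (Cd3e, Ms4a1, Ly6g, Mpo and Ly6c2) had no read in any library, and the list summed to between 2.88 and 3.29 TPM in the other libraries and to 5.48 TPM in anti-B. Ccr2, a chemokine receptor of monocytes, had 0 reads in both libraries of pair A, 2 in NC-B and 25 in anti-B. Other markers of this list did not all follow it. Itgal had 13 and 23 reads in pair A and 22 and 52 in pair B. S100a9 had 3 and 5 in pair A and 3 and 1 in pair B, and Plac8 had 3 and 2 in each pair. The part of these cells in the values of pair B was not tested either. Median log2 fold changes were 0.08 for Müller glia, -0.10 for endothelial and -0.05 for pericyte markers. The rod photoreceptor markers, which check the tissue label, summed to between 12352 and 14421 TPM with all 12 present, and had a median of 0.07. For red cell markers the median log2 ratios were 1.86 (pair A) and -0.68 (pair B). These markers summed to 404, 1592, 745 and 455 TPM in the order NC-A, anti-A, NC-B, anti-B. For pigment epithelium markers the ratios were 0.84 (pair A) and 0.09 (pair B), with sums of 24.5, 59.2, 37.6 and 37.8 TPM in that order. The median log2 fold change of the pigment epithelium markers was 0.51. For the lens markers it was -7.65, and 0.51 without NC-A.

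The genes whose pattern over the 4 libraries was most like the median profile of the members tested were sought among 16048 other genes with a mean of at least 1 CPM. Likeness was measured as the Euclidean distance between centred log2 CPM values, over 4 libraries only. The members were chosen on the contrast of the groups, so genes near their profile are high in the anti-miR-124 group by construction. The nearest was Uba7, the enzyme that activates ISG15, at a distance of 0.16, with 5 and 23 reads in pair A and 6 and 49 in pair B. Gbp9, a guanylate-binding protein, and Trim34a, a member of the Trim family, followed at 0.28 and 0.29. Next were Parp14, an ADP-ribosyltransferase, at 0.32, the gene ENSMUSG00000101628.1 at 0.36, and Xaf1 and Oas1b, both at 0.41. Parp14, Xaf1 and Oas1b are also in the list of effectors above. Uba7, Trim34a, Xaf1 and Oas1b had at most 15 reads in any NC library. They reached the mean of 1 CPM because the anti-miR-124 libraries were high. Among the members themselves, Rnf213 (0.25) and Lgals3bp (0.35) were nearest to this profile, and Samhd1 (2.07) and Ifitm2 (1.80) were farthest.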

How the data were processed

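RNA-Seq was performed on 4 mouse retina libraries. The values deposited by the authors are raw read counts per gene, beside gene lengths and positions, and RPKM columns that were not used here. The submitters' processing notes name HISAT2 and mm9, with no role or version. The read counter is not given in the sources used here. Of 36837 symbols matched to RefSeq GRCm38.p6, 99.8% overlapped it in position, including all 10 members, so positions are given on GRCm38. The series' design text gives a day that differs from the sample labels, and the labels' postnatal day 9 was used. Columns were assigned to groups by the eye in their name (left, anti-miR-124 and right, NC). The sources do not say whether libraries came from separate mice, so p-values measure the spread between these libraries. Same-numbered libraries had a correlation of their deviations of -0.16 over genes, so the numbers were not used as pairs in the main test. No libraries were duplicates, with a chi-square per degree of freedom of at least 3.44.

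The members and lists were chosen with earlier results of these data known. Counts were tested with edgeR 4.0.16 (R 4.3.3), quasi-likelihood, TMM, its filter on low counts (10 reads, 0.569 CPM here), no covariate, both directions and a threshold of 0.05. DESeq2 1.42.0 was an alternative. Ratios within pairs used CPM, with 95% exact (Clopper-Pearson) intervals that cover counting error only. TPM was computed from counts and lengths, and log2 CPM used a prior count of 0.5 (2 for the pattern distance). Python 3.11.15, pandas 2.3.3, scipy 1.17.1 and Biopython 1.88 were used for other steps, including a local alignment of the longest GENCODE M21 transcripts. In lists where no gene passed, the 3 genes with the largest absolute log2 fold change and a mean of at least 10 counts were named. In effector and marker lists, names came from the 2 with the highest NC level. Gfap, Ccr2, Itgal, Plac8, P2ry12, Oas1a and markers without reads were named after their values were seen. The values of some genes that these rules name, and of 1 of the 8 genes nearest to the profile, are not reported here. Protein identity and seed matches of miR-124-3p were planned and not analysed here.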

Additional observations from a re-analysis of the deposited data

How the results depend on the processing

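The median log2 fold change of the members tested lay between 2.21 and 2.30 under DESeq2's size factors, total counts, upper quartile scaling, no filter, a mean of at least 10 counts, lens genes left out, DESeq2's test, both blocked fits and mean log2 TPM ratios, and between 1.72 and 2.67 when each library was left out in turn. The number of members higher in both pairs was 9 and the number with groups that do not overlap was 8 under every scaling tried. The count of genes past an adjusted p-value of 0.05 was 0 in the main test, 379 without the filter and 34 with DESeq2, and between 0 and 256 when a library was left out (0 and 57 without NC-A and without NC-B, 256 and 12 without anti-A and without anti-B), where the group left with 1 library is assumed to vary like the other. The cause was not tested. With the number as a replicate block the count was 0, and 376 genes had p-values under 0.05 before adjustment, and with the numbers crossed, an alternative chosen after seeing the data, it was 160, and 8 members were higher in both crossed pairs. Ifitm2 was the only member that changed sign, and did so only without anti-B. Among the lists, the medians of the paralogs and partners, deoxynucleotide enzymes, pericyte, lens, red cell and gliosis genes changed sign under at least 1 alternative, that of the gliosis genes lying between -0.22 and 1.81 when a library was left out. The low counts of Ifitm1, Mx1 and Mx2 limit what their values show.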

Other observations

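The genes that flank the members showed small differences. Of 14 flanking genes with enough reads to be tested, 7 were higher in both pairs, beside 22.8% of all genes tested, and their median log2 fold change was 0.08, with a range of -0.62 to 0.77. The highest was that of Cmpk2, a mitochondrial nucleotide kinase that is also in the list of antiviral effectors above. It lies 12760 bases from Rsad2 on the opposite strand, and had 109 and 211 reads in pair A and 165 and 279 in pair B. The log2 fold change of Cmpk2 was 0.77 with a standard error of 0.20, against 2.63 for Rsad2. On both sides of the Ifitm genes, Athl1 (0.46, standard error 0.19) and B4galnt4 (0.14, 0.09) were also higher in both pairs. Mvb12a, 5442 bases from Bst2, had a log2 fold change of 0.15 (0.12), and Plvap, on the other side at 22455 bases, had -0.37 (0.32). Values below 0 were also found for Ripk4, which flanks the Mx genes (-0.62, 0.43), and for Slc26a11 beside Rnf213 (-0.26, 0.17). Beside Samhd1, Tldc2 had -0.08 (0.47) and Rbl1 had -0.06 (0.15). On the sides of Lgals3bp, Cant1, at 4358 bases, had 0.07 (0.07) and Timp2, at 37341 bases, had 0.36 (0.11). These genes were chosen by position and named after their values were seen.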
